A study of Homo sapiens with 6 samples.

Results

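Genes of the tight junction were examined in MCF-10A cells that overexpress MBD2, a protein that binds methylated DNA and recruits a repressor complex. The set was chosen by name, with earlier results of these data known, and holds 9 genes. They are the claudin genes CLDN1, CLDN4, CLDN7 and CLDN8, OCLN (occludin), MARVELD2 (tricellulin), F11R (junctional adhesion molecule A), and the plaque genes TJP1 (ZO-1) and CGN (cingulin). Every probe set that the platform annotation assigned to 1 of these symbols alone was kept, which gave 16 of 54675 probe sets for 8 genes. No probe set carried the symbol F11R alone in the annotation used, so F11R was not analysed here. CLDN7, OCLN and MARVELD2 were lower in the MBD2 cells, by 7.93-fold at the probe set of CLDN7, 3.56- and 5.94-fold at the OCLN probe sets that passed, and 2.80- and 3.71-fold at those of MARVELD2. CLDN1 lay below every control array on every MBD2 array without passing the test, whereas the intervals of TJP1, CLDN4 and CLDN8 all included no change. CGN did not pass either, with log2 intervals of -1.09 to -0.04 at 223232_s_at and -1.54 to 0.19 at 223233_s_at. Some arrays of a group were near-identical, and with these averaged into 1 value 0 of all probe sets passed.

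MCF-10A cells are breast epithelial cells of human origin that were immortalized without being transformed. The series holds 3 arrays of cells that received a lentivirus carrying MBD2, packaged in HEK293 cells and labelled an MBD2 transfection, and 3 arrays of control cells. The methods speak of an empty control virus and of biological replicates, but their fold rule refers to an untreated control. The submitters' labels speak of uninfected cells and technical replicates. The p-values below therefore cover the spread among these arrays alone, which may be technical. The sources used here do not say whether the infected cells were selected or cloned. Both groups grew in the same mammary epithelial medium, and no other agent or allele is given for either. In such bulk RNA, fewer cells that express a gene and less RNA per cell cannot be told apart.

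Tight junctions seal the space between epithelial cells close to their apical side. Claudins are four-pass membrane proteins whose extracellular loops pair across neighbouring cells and set which ions and small solutes pass. Occludin and tricellulin belong to the MARVEL family, with occludin along the contact between 2 cells and tricellulin where 3 cells meet. JAM proteins are single-pass adhesion molecules, and ZO proteins and cingulin lie on the cytoplasmic side, where they tie the membrane proteins to actin. Transcription of claudin and occludin genes is known to be repressed by Snail and ZEB factors and promoted by Grainyhead factors in epithelia.

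Expression was read on Affymetrix Human Genome U133 Plus 2.0 arrays as log2 values normalized by RMA, 1 value per probe set and array, and groups were compared with limma over the 41091 probe sets with a single symbol. Calls required a difference of at least 1.5-fold and a Benjamini-Hochberg p below 0.05, and all fold changes are MBD2 minus control on the log2 scale. The MBD2 probe set with the most signal was higher on the MBD2 arrays (2.92 ± 0.28 on the log2 scale, fold change ± standard error, limma adjusted p = 0.0157, or 0.00745 to 0.107 with 1 array left out). The 3 other probe sets of MBD2, which averaged 3.09 to 4.69 over the 6 arrays, were not called (-0.08, -0.03 and 0.11), and the mean over its 4 probe sets changed by 0.73 (adjusted p = 0.0470 with 1 test per gene). The number of genes that differed over 2-fold was 95 between MBD2 arrays 2 and 3 and 5 between control arrays 1 and 2, but 1571 to 2876 between the other pairs within a group. Hybridization controls averaged 9.94 and 10.01 on MBD2 arrays 2 and 3, and 10.96 to 11.33 on the other 4 arrays. When the near-identical arrays of each group were averaged into 1 value, limma called 0 of all probe sets (1327 lower and 1420 higher at an unadjusted p under 0.05), so every call below rests on counting those arrays separately. The 6 analysed markers of mammary basal epithelium averaged 11.7 to 12.1 on MBD2 arrays and 11.6 to 12.6 on control arrays, and limma called 0 of them (3 were lower before adjustment, at p under 0.05). Their fold changes were -1.26 for KRT5, -1.14 for CDH3, -0.56 for KRT14, -0.41 for EGFR, 0.61 for LAMB3 and 0.81 for ITGB4. Fibroblast markers (7 genes) averaged 8.32 on MBD2 array 1, 6.33 and 6.65 on the other MBD2 arrays and 6.52 to 6.93 on control arrays, and DCN stood at 12.57 on MBD2 array 1. The 3 leukocyte markers averaged 5.33 to 5.64 on MBD2 arrays and 6.42 to 6.68 on control arrays, a gap that came from CD14 (-3.07, adjusted p = 0.0509 by limma), while PTPRC (-0.18) and CD3E (-0.01) overlapped between groups. Neither these markers nor the fibroblast, endothelial or HEK293 markers held a called gene. The part of other cells in the results below was not tested.

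The start regions of the members are shown because several of these genes moved together and because MBD2 acts on methylated CG dinucleotides. RefSeq windows (GRCh38.p14) of 300 bases, 250 before and 50 after a transcription start, were found for 7 of the 9 genes, with 12 windows in all. The E-box searched for was CAGGTG, read as CAGGTG or CACCTG so that both strands count, and it is the core to which Snail and ZEB factors bind. It was present in 20.6% of 35116 windows of all genes. CLDN7 had 5 E-boxes in its first window, a number reached by 0.094% of all windows, at -174, -135, -20, -9 and +6 from the start. OCLN had 1 E-box in one window and 2 in the other, TJP1 had 1 in 1 of its 4 windows, and CLDN1, CLDN4, MARVELD2 and CGN had 0. The Grainyhead consensus AACCGGTT, which is its own reverse complement, was searched for in these exact letters only. It was in 0 of the 12 windows and in 0.134% of all windows. With so rare a sequence the 0 says little, and looser matches were not searched for. The sequences below run 5′ to 3′ on the strand of the gene, with E-boxes in capitals.
CLDN7, window 1 (chr17:7262429-7262728, minus strand): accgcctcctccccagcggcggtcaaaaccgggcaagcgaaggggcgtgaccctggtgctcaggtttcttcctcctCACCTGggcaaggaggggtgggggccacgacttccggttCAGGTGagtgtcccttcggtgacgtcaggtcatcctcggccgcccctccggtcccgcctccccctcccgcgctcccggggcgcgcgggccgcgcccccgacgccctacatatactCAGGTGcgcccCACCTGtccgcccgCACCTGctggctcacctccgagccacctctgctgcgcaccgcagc
OCLN, window 1 (chr5:69492297-69492596, plus strand): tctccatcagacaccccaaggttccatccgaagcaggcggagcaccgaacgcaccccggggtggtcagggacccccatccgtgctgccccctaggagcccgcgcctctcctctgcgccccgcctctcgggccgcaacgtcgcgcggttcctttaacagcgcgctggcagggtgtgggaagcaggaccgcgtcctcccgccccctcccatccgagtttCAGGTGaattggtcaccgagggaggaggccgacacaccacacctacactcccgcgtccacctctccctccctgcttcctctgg
OCLN, window 2 (chr5:69492540-69492839, plus strand): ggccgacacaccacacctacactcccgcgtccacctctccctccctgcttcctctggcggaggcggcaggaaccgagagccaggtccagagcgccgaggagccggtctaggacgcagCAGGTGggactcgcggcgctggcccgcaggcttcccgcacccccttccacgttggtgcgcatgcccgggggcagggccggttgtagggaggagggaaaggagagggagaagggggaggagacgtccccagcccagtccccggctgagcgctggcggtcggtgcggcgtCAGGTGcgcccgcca
MARVELD2 (chr5:69414866-69415165, plus strand): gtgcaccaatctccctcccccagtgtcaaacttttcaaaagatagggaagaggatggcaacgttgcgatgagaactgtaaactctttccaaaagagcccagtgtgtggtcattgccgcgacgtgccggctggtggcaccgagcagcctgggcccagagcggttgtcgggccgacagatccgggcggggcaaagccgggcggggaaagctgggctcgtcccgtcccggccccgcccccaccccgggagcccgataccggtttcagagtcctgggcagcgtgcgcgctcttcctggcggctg
CLDN1 (chr3:190322397-190322696, minus strand): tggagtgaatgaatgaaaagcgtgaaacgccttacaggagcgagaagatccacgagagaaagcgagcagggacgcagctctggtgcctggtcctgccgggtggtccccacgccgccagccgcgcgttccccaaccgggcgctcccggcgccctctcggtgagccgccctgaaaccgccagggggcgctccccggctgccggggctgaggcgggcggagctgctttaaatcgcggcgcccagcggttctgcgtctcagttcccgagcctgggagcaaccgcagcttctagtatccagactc
CLDN4 (chr7:73830746-73831045, plus strand): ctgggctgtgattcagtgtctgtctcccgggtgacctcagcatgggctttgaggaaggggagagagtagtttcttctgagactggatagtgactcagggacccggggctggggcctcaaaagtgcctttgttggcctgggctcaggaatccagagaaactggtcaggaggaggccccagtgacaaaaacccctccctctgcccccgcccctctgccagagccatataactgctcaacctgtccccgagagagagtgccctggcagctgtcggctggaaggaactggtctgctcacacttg

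CG counts differed between windows of the same gene, and no pattern with the expression change was tested. There were 30 in window 1 of CLDN7 and 10 in its window 2, which had 0 E-boxes, 26 and 28 in the windows of OCLN, 25 in that of MARVELD2 and 31 in that of CLDN1, against a median of 14 over all windows. CGN had 37 and TJP1 had 3 to 36 over its windows, whereas CLDN4 had 5. These are counts of letters, and no methylation was measured on these arrays.

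**Figure D1:**
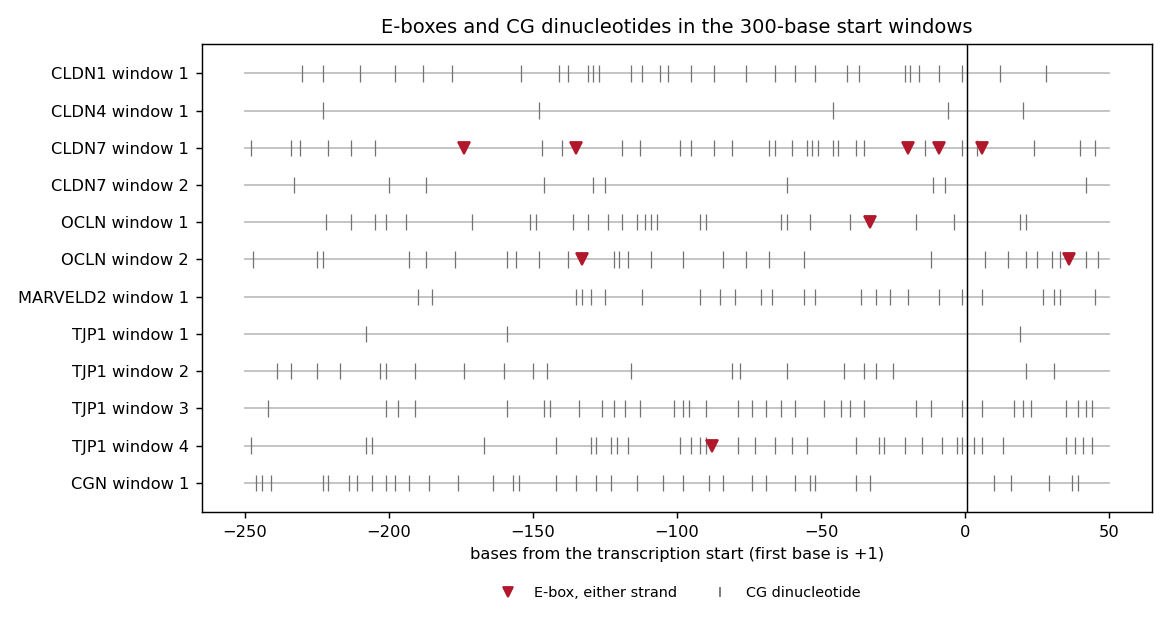
Positions of E-boxes (red triangles) and CG dinucleotides (grey ticks) in the 12 start windows of 7 tight junction genes, in bases from the transcription start. The 5 E-boxes of CLDN7 lie in 1 window, with 3 of them between -20 and +6, and CLDN4 shows 5 CG dinucleotides.

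Over the whole set, 5 of 16 probe sets were lower on the MBD2 arrays and 0 were higher, where 0.978% of all probe sets were called lower and 0.898% higher. At an unadjusted p under 0.05, limma gave 10 lower and 0 higher, where 8.05% of all probe sets were lower and 8.49% higher. The median log2 fold change of the 16 probe sets was -1.47, against 0.00 over all probe sets (-0.00466). On 10 of the 16 probe sets every MBD2 array lay below every control array, as on 12.3% of all probe sets, and on 0 every MBD2 array lay above, as on 10.4% of all. Read at the brightest probe set of each gene, 2 of 8 genes were lower, against 1.28% of 19775 genes, and 0 were higher, against 1.04%. The count of 5 fell to 0 without control array 1, control array 2, MBD2 array 2 or MBD2 array 3, and was 4 without control array 3 and 9 without MBD2 array 1. Over all probe sets, the first 4 of these settings called 18 to 67 lower and 2 to 32 higher. Without MBD2 array 1 it was 1924 lower and 3616 higher, against 402 and 369 with all arrays. Of all calls 52.1% were lower, or 75.2% with arrays centred on housekeeping genes, where 7 of the 16 probe sets were lower. The members and the gene lists were chosen with earlier results known, so the shares here and below describe them and test no excess.

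**Figure D2:**
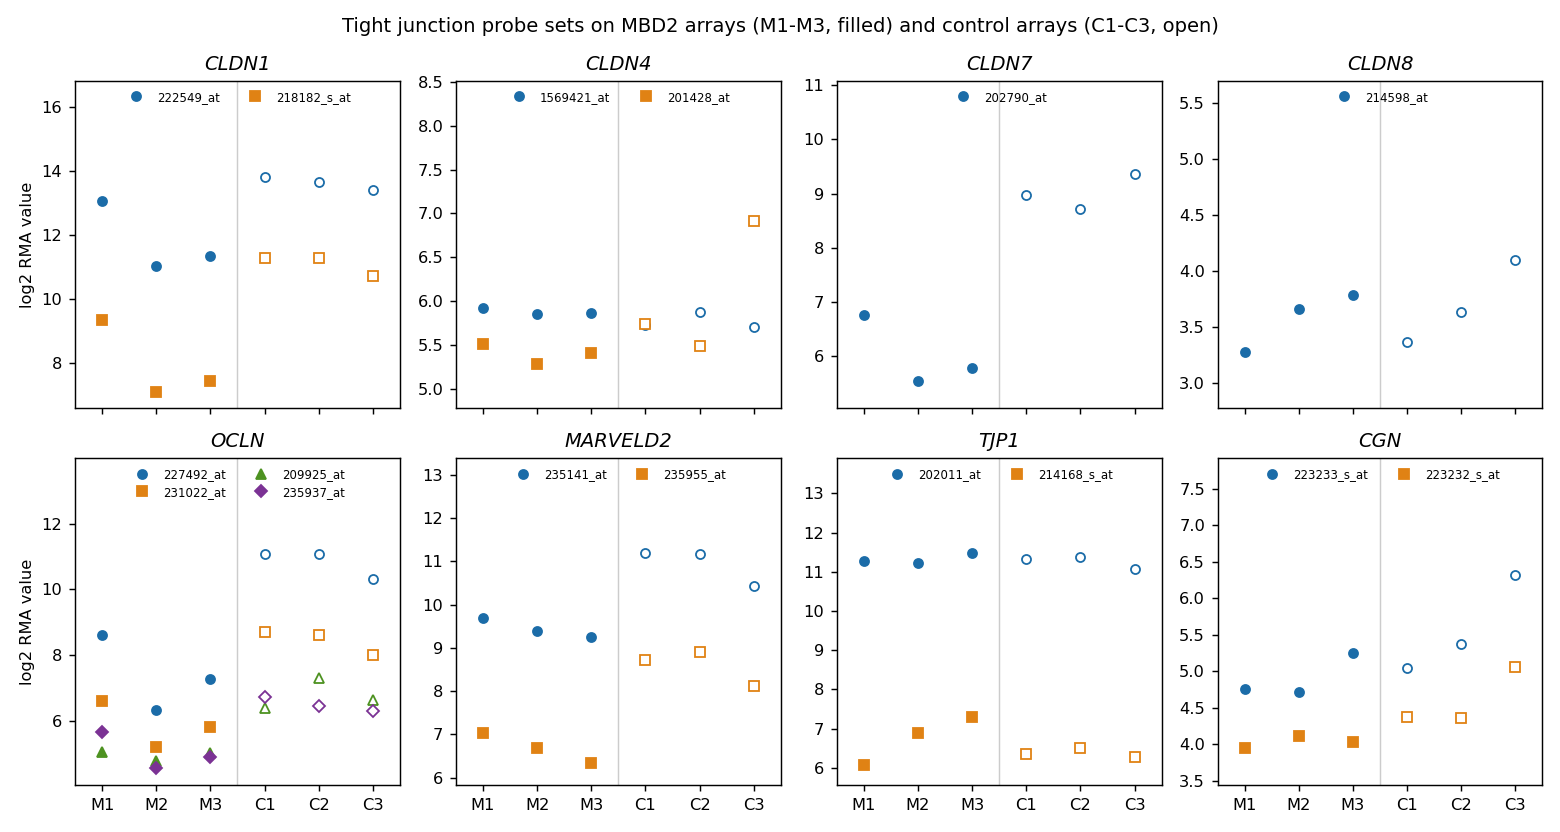
Log2 RMA values of the 16 probe sets of 8 tight junction genes on MBD2 arrays (M1 to M3, filled) and control arrays (C1 to C3, open), with 1 symbol per probe set. All probe sets of CLDN1, CLDN7, OCLN and MARVELD2 lie lower on the MBD2 arrays, and in each of these 9 probe sets M1 is the highest of the MBD2 arrays.

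CLDN7 encodes a claudin of simple and glandular epithelia that is also found along the lateral membrane. Its probe set read 6.76, 5.55 and 5.78 on MBD2 arrays 1, 2 and 3, against 8.97, 8.72 and 9.36 on control arrays 1, 2 and 3. The groups did not overlap, and MBD2 array 1 was the closest to the controls. The means were 6.03 ± 0.64 in MBD2 cells and 9.02 ± 0.32 in control cells (SD, n = 3 each), which differ by -2.99 ± 0.35 on the log2 scale (standard error; limma adjusted p = 0.0239). With 1 array left out in turn the fold change lay between -3.35 and -2.75, and the adjusted p between 0.00295 and 0.129.

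CLDN1 encodes the claudin that forms the barrier of stratified epithelia, without which mice lose water through the skin. Its probe set 222549_at read 13.08, 11.02 and 11.34 on the MBD2 arrays, against 13.80, 13.66 and 13.40 on the control arrays. Probe set 218182_s_at read 9.37, 7.11 and 7.44 on the MBD2 arrays and 11.30, 11.28 and 10.72 on the control arrays. In both, MBD2 arrays 2 and 3 stood well below MBD2 array 1, which itself lay below every control array. The log2 fold changes were -1.81 (SE 0.54) and -3.13 (SE 0.60), with limma adjusted p = 0.186 and 0.0723. Without MBD2 array 1, which leaves only the near-identical MBD2 arrays 2 and 3, they were -2.44 and -3.83, with adjusted p = 0.00349 and 0.00271. With other single arrays left out, the adjusted p reached 0.530 for 222549_at and 0.284 for 218182_s_at. With arrays centred on housekeeping genes, 218182_s_at passed (adjusted p = 0.0380) and 222549_at did not (0.148).

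CLDN4, a claudin that tightens the barrier to sodium, and CLDN8, a claudin known from kidney tubule and other tight epithelia, gave no difference beyond the spread between arrays. Probe set 201428_at of CLDN4 read 5.51, 5.28 and 5.40 on the MBD2 arrays, against 5.74, 5.49 and 6.91 on the control arrays, so that control array 3 alone stood apart. Its log2 fold change of -0.65 had a 95% interval of -1.56 to 0.27 (adjusted p = 0.451 from limma), and without control array 3 it was -0.22. The other probe set, 1569421_at, lay between 5.71 and 5.92 on all 6 arrays, with a log2 fold change of 0.11 (95% interval -0.13 to 0.35), which turned to -0.18 with arrays centred on housekeeping genes. CLDN8 read 3.28, 3.66 and 3.79 on the MBD2 arrays and 3.37, 3.63 and 4.10 on the control arrays. Probe sets for trp, a bacterial transcript used as an array control, reached 3.67, so CLDN8 was not clearly above background and its log2 fold change of -0.12 (95% interval -0.69 to 0.44) has little room to show a decrease.

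OCLN encodes occludin, a MARVEL protein that regulates the junction rather than building its strands. Probe set 227492_at read 8.61, 6.32 and 7.26 on the MBD2 arrays, against 11.06, 11.06 and 10.30 on the control arrays. Probe set 231022_at read 6.59, 5.21 and 5.82 on the MBD2 arrays and 8.70, 8.62 and 8.01 on the control arrays. For both, MBD2 array 2 was the lowest and control array 3 was the lowest of the controls, with no overlap between groups. Probe set 209925_at read 5.05, 4.76 and 5.01 on the MBD2 arrays and 6.39, 7.30 and 6.63 on the control arrays, and 235937_at read 5.66, 4.55 and 4.88 on the MBD2 arrays and 6.73, 6.46 and 6.29 on the control arrays. None of the 4 probe sets had overlapping groups, but their changes differed in size.

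Of the 4 OCLN probe sets, 231022_at (log2 fold change -2.57, standard error 0.38, adjusted p = 0.0412) and 209925_at (-1.83, standard error 0.25, adjusted p = 0.0337) passed limma's test. The probe set with the most signal, 227492_at, had the largest fitted decrease of the 4 (-3.41, standard error 0.59) and missed the threshold with an adjusted p of 0.0561, and 235937_at had -1.46 (standard error 0.30, adjusted p = 0.0840). With 1 test per gene, 227492_at passed (adjusted p = 0.0464), and the mean of the 4 probe sets changed by -2.32 (adjusted p = 0.0361). RefSeq also lists a transcribed pseudogene, OCLNP1, on chromosome 5, and whether its transcripts reach these probe sets was not tested.

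MARVELD2 encodes tricellulin, which seals the corners where 3 cells meet and shares a C-terminal domain with occludin. Its gene is a close neighbour of OCLN on the plus strand of chromosome 5. Their first start windows begin at bases 69414866 and 69492297. Whether the changes of these genes are separate was not tested. Probe set 235141_at read 9.69, 9.39 and 9.26 on the MBD2 arrays, against 11.20, 11.17 and 10.44 on the control arrays. Probe set 235955_at read 7.04, 6.67 and 6.33 on the MBD2 arrays and 8.71, 8.90 and 8.11 on the control arrays. Control array 3 was the lowest control in both and still lay above every MBD2 array. The log2 fold changes were -1.49 (SE 0.24) and -1.89 (SE 0.27), with limma adjusted p = 0.0495 and 0.0375. The first lies just under the threshold and missed it when all 54613 probe sets other than array controls were tested (0.0602) and with trend and robust fitting (0.0659).

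TJP1 encodes ZO-1, the scaffold to which claudins and occludin bind. Its probe set 202011_at read 11.28, 11.22 and 11.47 on the MBD2 arrays, against 11.34, 11.37 and 11.07 on the control arrays, and the groups overlapped. The log2 fold change was 0.06, with a 95% interval of -0.25 to 0.38 (adjusted p = 0.854 from limma), and with arrays centred on housekeeping genes it was -0.23. Probe set 214168_s_at read 6.06, 6.88 and 7.30 on the MBD2 arrays and 6.35, 6.52 and 6.27 on the control arrays, with a log2 fold change of 0.37 (95% interval -0.41 to 1.14). There MBD2 array 1 was the lowest of the 6 arrays, and without it the fold change was 0.71 (adjusted p = 0.0473). With other single arrays left out, the adjusted p reached 0.956.

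CGN encodes cingulin, which links the plaque to actin and to regulators of RhoA. Probe set 223233_s_at read 4.75, 4.71 and 5.25 on the MBD2 arrays, against 5.05, 5.37 and 6.32 on the control arrays. Probe set 223232_s_at read 3.94, 4.11 and 4.03 on the MBD2 arrays and 4.37, 4.35 and 5.06 on the control arrays. The log2 fold changes were -0.67 (95% interval -1.54 to 0.19, adjusted p = 0.409 from limma) and -0.57 (95% interval -1.09 to -0.04, adjusted p = 0.269). Control array 3 was the highest array in both, and without it they were -0.31 and -0.33.

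**Figure D3:**
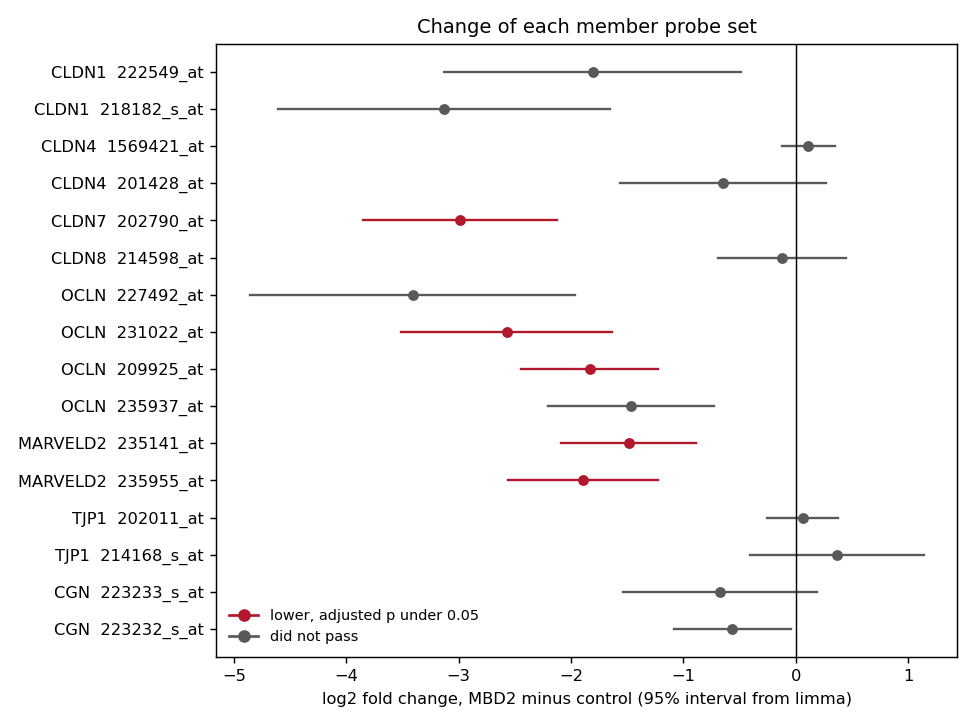
Log2 fold change of each of the 16 probe sets, MBD2 minus control, with its 95% interval from limma (3 arrays per group). The 5 probe sets that passed (red) belong to CLDN7, OCLN and MARVELD2, and the intervals of CLDN4, CLDN8 and TJP1 include 0.

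The decrease was smaller on MBD2 array 1 than on the other MBD2 arrays in all 9 probe sets of CLDN1, CLDN7, OCLN and MARVELD2. The share of all probe sets with this order was not counted. Over all genes, MBD2 array 1 was over 2-fold apart from array 2 at 2876 genes and from array 3 at 2565. The median difference of the 9 probe sets from the control mean was -1.72 on MBD2 array 1, -2.60 on array 2 and -2.28 on array 3, whereas the median over all probe sets was -0.05, 0.01 and 0.01 on these arrays. MBD2 array 1 also had the highest fibroblast markers and the highest hybridization controls of the MBD2 arrays, and the part of either in this difference was not tested.

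Among other genes of the tight junction, 2 of 46 analysed (of 52 listed) were lower at their brightest probe set and 0 were higher, a share of 4.35% lower where 1.28% of all genes were lower and 1.04% higher. At an unadjusted p under 0.05, limma gave 13 lower (28.3%) and 5 higher (10.9%), where 9.79% of all genes were lower and 8.83% higher. Of 16 other claudins, 0 passed in either direction (4 lower and 0 higher at an unadjusted p under 0.05), and their fold changes ran from -0.70 for CLDN12 to 0.24 for CLDN2, with a median of -0.13. Of 10 other membrane proteins, CRB3, a polarity protein of the apical membrane, and CXADR, an adhesion molecule known as the receptor of coxsackieviruses and adenoviruses, were lower. CRB3 read 7.53, 6.91 and 6.91 on the MBD2 arrays, against 8.93, 8.59 and 8.68 on the control arrays (change of -1.62 log2 units, SE 0.21, adjusted p = 0.0294 by limma). CXADR read 10.24, 9.67 and 9.52 on the MBD2 arrays and 11.53, 11.48 and 11.06 on the control arrays (change of -1.55 log2 units, SE 0.23, adjusted p = 0.0419). With 1 array left out in turn, the adjusted p ran from 0.00382 to 0.148 for CRB3 and from 0.00586 to 0.180 for CXADR. CXADR also missed the threshold with all probe sets other than array controls tested (0.05002) and with trend and robust fitting (0.0531). MARVELD3, the third MARVEL protein of the junction, had a fold change of -1.65 and an adjusted p of 0.0501. It passed with 1 test per gene (0.0416) but not with all probe sets other than array controls tested (0.0612). LSR, the lipoprotein receptor that draws tricellulin to corners, had -1.24 (adjusted p = 0.0952), and JAM3, a relative of F11R, had 1.41 (adjusted p = 0.189). Of 20 plaque and polarity proteins, 0 passed (5 lower and 4 higher at an unadjusted p under 0.05), and the median was -0.06. Of these genes, CLDN12, CLDN2, MARVELD3, LSR and JAM3 were chosen after their values were seen.

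Of 19 analysed transcription factors that are known to act on junction or epithelial genes, 4 were lower (21.1%, against 1.28% of all genes) and 3 were higher (15.8%, against 1.04%). GRHL1, a Grainyhead factor, read 5.15, 4.75 and 4.92 on the MBD2 arrays, against 9.18, 9.45 and 10.59 on the control arrays (change of -4.80 log2 units, SE 0.38, adjusted p = 0.0116 by limma). The other factors that were lower were GRHL3 (-3.02), OVOL1 (-2.65), which restrains mesenchymal genes, and the ETS factor EHF (-2.07). With 1 array left out in turn, limma's adjusted p reached 0.0770 for GRHL1 and OVOL1, 0.0595 for GRHL3 and 0.144 for EHF. The mean over all probe sets of a gene changed by -2.82 for GRHL1, -3.02 for GRHL3, -1.56 for OVOL1 and -2.41 for EHF. GRHL2, the Grainyhead factor known in mice to drive Cldn4, lay between 3.65 and 4.14 on both groups of arrays, with a fold change of -0.08 (95% interval -0.47 to 0.30). The factors that were higher were TWIST1 (1.81) and ZEB1 (1.61), with TWIST2 higher by 2.83-fold, and the fold change of ZEB1, a repressor that binds the E-box printed above, had an adjusted p of 0.0425. It missed the threshold with arrays centred on housekeeping genes (0.116), with all probe sets tested (0.0510), with further quantile normalization (0.0529) and without control array 3 (0.0508), and also without any 1 of the near-identical arrays (0.0932 to 0.195). ZEB1 read 7.35, 6.73 and 7.12 on the MBD2 arrays and 5.75, 5.59 and 5.05 on the control arrays. For TWIST1 and TWIST2, limma's adjusted p reached 0.119 and 0.135 with 1 array left out in turn. The mean over all probe sets changed by 1.81 for TWIST1, 0.89 for TWIST2 and 1.49 for ZEB1. SNAI2, a Snail factor, read 11.27, 11.06 and 11.27 on the MBD2 arrays and 9.71, 9.87 and 10.85 on the control arrays, and its fold change of 1.05 did not pass (adjusted p = 0.178).

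Other epithelial junctions were compared by counts only, and no difference between them and the tight junction was tested. Of 13 genes of desmosomes, 3 were lower (23.1%) and 0 were higher, with a median of -0.84. Of 11 analysed genes of adherens junctions, 2 were lower (18.2%) and 0 were higher, with a median of -0.13. Of all genes, 1.28% were lower and 1.04% higher. The median over the 8 tight junction members at their brightest probe set was -1.08, and over all genes it was -0.02.

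**Figure D4:**
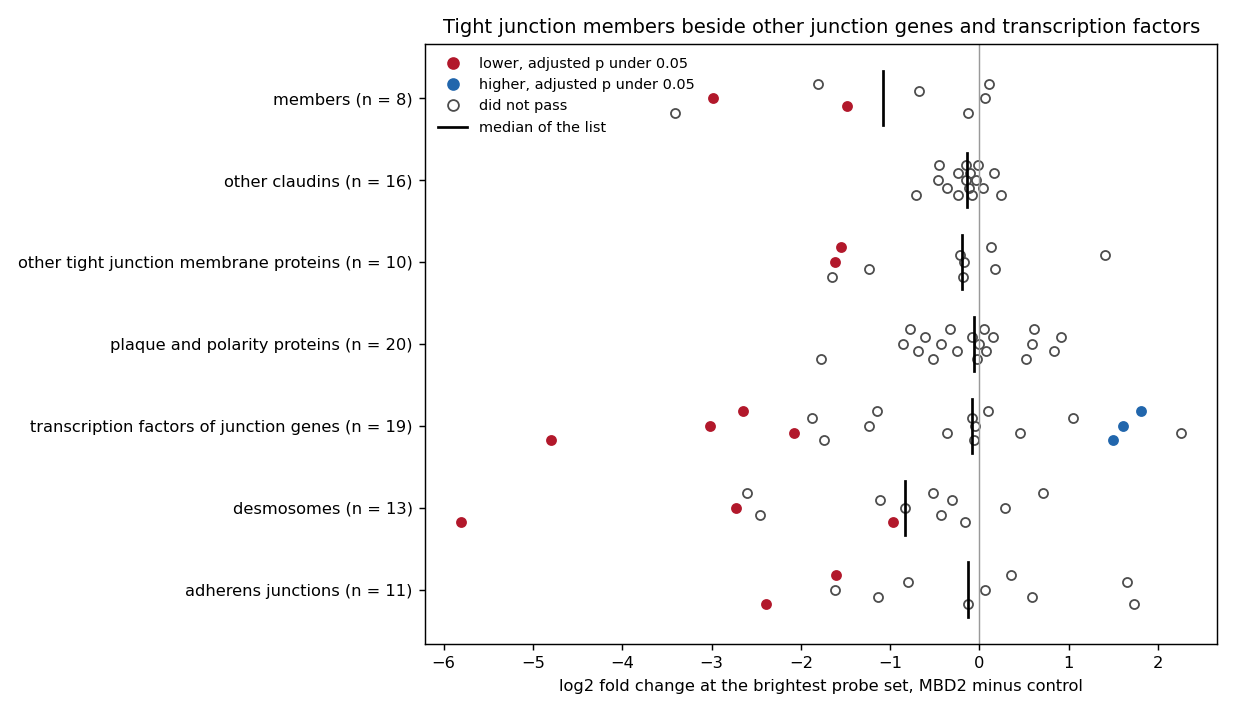
Log2 fold change at the brightest probe set, MBD2 minus control, for the 8 members, 3 lists of other tight junction genes, transcription factors of junction genes, desmosomes and adherens junctions. Each point is a gene, filled where it passed the test, and the black bar is the median of the list, which lies at -1.08 for the members and -0.13 for the other claudins. Many of the other claudins had low signal, which limits the decrease they can show.

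The genes whose brightest probe set followed CLDN7 and MARVELD2 most closely were found by the root mean square difference, over the 6 arrays, of deviations from the control mean. For CLDN7 they were TINCR, a gene of epidermal differentiation (0.185 log2 units), CD14, a receptor for bacterial lipopolysaccharide (0.239), and GRHL3 (0.243). TINCR read 6.59, 5.61 and 5.84 on the MBD2 arrays, against 9.12, 8.86 and 9.69 on the control arrays. For MARVELD2 they were PGAP4, an enzyme of GPI anchors (0.0944), BMPR1B, a receptor of bone morphogenetic proteins (0.117), and CXADR (0.142), with fold changes of -1.45, -1.39 and -1.55. CXADR is thus both a listed tight junction gene and the third nearest pattern to MARVELD2.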

How the data were processed

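Total RNA of MCF-10A cells was hybridized to Affymetrix Human Genome U133 Plus 2.0 arrays. The values deposited by the authors are on a log2 scale after RMA, which subtracts background, gives all arrays 1 distribution and summarises the probes of a probe set. The submitters' processing notes name RMA and affy, and versions are not given in the sources used here. Probe sets were named through the platform annotation, updated by Entrez identifier with the RefSeq gene table (41037 of 41091 probe sets with 1 symbol matched). Probe sets with several symbols (1801), none (11721) or for array controls (62) were left out of the tests. The 41091 others were fitted with limma 3.58.1 in R 4.3.3 (lmFit on group, then eBayes, 1.95 prior degrees of freedom), with no filter on dim probe sets, and p-values were adjusted over all of them by Benjamini-Hochberg. A gene's brightest probe set has the highest mean over the 6 arrays. The fit was also run on simulated data with independent arrays. That setting lacks the near-identical arrays seen here, so it does not show whether the calls are sound. Precision is limited by the number of arrays.

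The members, the gene lists and the alternatives were chosen with earlier results of these data known. Named were all member probe sets, MBD2, up to 5 called genes of each tight junction and transcription factor list, ZEB1, SNAI2, GRHL2, and the 3 nearest patterns of each called member. Other genes, namely DCN, the markers of basal epithelium and leukocytes, CLDN12, CLDN2, MARVELD3, LSR and JAM3, were named after their values were seen. List genes that met no probe set with 1 symbol were not analysed here. The desmosome and adherens junction lists were added for comparison by counts.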

Additional observations from a re-analysis of the deposited data

How the results depend on the processing

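The fold changes of the called members kept their direction under every alternative that was run, but the calls depended on which arrays were counted. On these probe sets every MBD2 array lay below every control array. Leaving out, averaging or blocking arrays could therefore not change the direction, and neither could a change of the test alone. With 1 array left out in turn, the member probe sets called lower numbered 0 to 9 and those called higher 0 to 1. Over all probe sets these settings gave 18 to 1924 lower and 2 to 3616 higher. At the brightest probe set, 0 to 4 member genes were lower and 0 to 0 higher. Of the other tight junction genes 0 to 7 were lower and 0 to 2 higher, and of the transcription factors 0 to 6 were lower and 0 to 3 higher. The member count was 0 when either near-identical control (array 1, array 2) or either near-identical MBD2 array (array 2, array 3) was dropped. With the near-identical arrays averaged, 0 member probe sets, 0 member genes, 0 other tight junction genes and 0 transcription factors were called, with 8 member probe sets lower and 0 higher at an unadjusted p under 0.05 in limma. Without control array 3 and MBD2 array 1 together, 9 member probe sets were lower and 1 was higher (TJP1 214168_s_at), with 4 member genes lower, 9 other tight junction genes lower and 5 higher, and 7 transcription factors lower and 5 higher. That setting keeps only the near-identical arrays of each group, and it called 4094 lower and 6380 higher over all 41091 probe sets.

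With the replicate numbers of the titles as a replicate block, 0 member probe sets, 0 member genes, 0 other tight junction genes and 0 transcription factors were called in either direction, and 23 lower and 1 higher over all probe sets. Arrays of the same number had deviations from their group means that correlated at 0.17, -0.27 and 0.21 across genes. Arrays of unlike number correlated at -0.26 to 0.29. These deviations sum to 0 within each group, so the correlations cannot decide whether the arrays were paired.

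With all probe sets other than array controls tested, 1 member gene and 1 other tight junction gene were lower. Centring on 22 housekeeping genes moved the median over all probe sets to -0.30, from -0.00466 as deposited. It gave 4 other tight junction genes lower, and 546 probe sets lower and 180 higher in all, a lower share of 75.2% where the deposited scale gave 52.1%. Over all probe sets, those with no ending for shared sequence gave 246 lower and 245 higher calls. Trend and robust fitting gave 1 other tight junction gene lower, and of the members MARVELD2 235141_at no longer passed (adjusted p = 0.0659) while OCLN 227492_at did (0.0478). The fold rule of the methods, applied to each MBD2 array with no p, gave 4 other tight junction genes lower and 3 higher, 7 transcription factors lower, and 575 probe sets lower and 1230 higher over all. That rule asks for a ratio under 0.5 for a decrease and only over 1.5 for an increase, so its 2 counts are not alike. Averaging, blocking and leaving out arrays leave fewer arrays or degrees of freedom, and beyond that the cause was not tested. Signal near background limits what CLDN8, GRHL2, CGN 223232_s_at and the dimmest of the other claudins can show.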
